A study of Saccharomyces cerevisiae with 12 samples.

Results

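The first hour after hydrogen peroxide was added to growing budding yeast (Saccharomyces cerevisiae) was compared with the unstressed state. The comparison used 4 of the 12 arrays of the series, chosen by their titles. They were the arrays at 30 and 60 min of an oxidative stress course and the 2 arrays at 0 min, one from that course and one from a parallel DNA damage course. All 5449 genes with a probe set of their own were included, and no gene was chosen by its values. Cells grew in rich YPD medium at 25 °C to mid-log phase, and at time 0 received 0.3 mM hydrogen peroxide (H2O2) or, in the parallel course, 0.1% methyl methanesulfonate (MMS), an agent that alkylates DNA bases. The 0 min arrays were taken at the time of addition. Strain, genotype and mating type are not given in the sources used here.

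Each time point had 1 array, so that 30 and 60 min stood in for replicates of an early window (n = 2 arrays) against time 0 (n = 2 arrays). The p-values thus weigh the change against a spread within groups that is pooled over all 12 arrays in 5 groups. Late peroxide and MMS arrays therefore add to it. It is a spread among time points of a window, or between the courses at 0 min, and not among repeat cultures. Values are log2 RMA signals, in which a difference of 1 is a 2-fold change. RMA places all arrays on a common distribution, and in a population of cells less of an mRNA per cell cannot be told apart from fewer cells that hold it. Calls come from 1 limma fit to all 12 arrays, at a threshold of 0.05 on the p adjusted over all genes (Benjamini-Hochberg), and changes carry the SE of that fit. For single genes, the signals at 0 min are given for the peroxide course and then the MMS course, followed by those at 30 and at 60 min.

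Yeast meets peroxide with dedicated enzymes, the peroxiredoxins, catalases and peroxidases. Of these, peroxiredoxins and glutathione peroxidases draw their electrons from thioredoxin and glutathione and in the end from NADPH. The transcription factors Yap1 and Skn7 switch on many of these genes, and Yap1 is held in the nucleus once its cysteines are oxidised. Msn2 and Msn4 serve a broader stress program of carbohydrate stores, chaperones and alternative metabolic enzymes. The same program of stress is known for a fall in the transcripts that build ribosomes.

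Of the 5449 genes, 799 rose (14.7%) and 1035 fell (19%). With every array centred on its median these counts were 911 and 884, so that the excess of falls depends on the scaling. The rises reached further than the falls. Rises of 8-fold or more were called for 51 genes and a fall of that size for 1, the helicase gene DHR2. The median change over all genes was -0.04 on the log2 scale. All 1834 called genes had both early arrays outside both 0 min arrays, but so did 4095 genes in all (75.2%). The arrays at 0 min differed from each other with an SD of 0.15 log2 across genes, against 0.448 between the 30 and 60 min arrays.

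Many calls rested on all 4 arrays being present. With each array left out in turn, the lone array of its group being assumed to vary like the other groups, 254 rises and 219 falls were called every time. The numbers higher and lower were 287 and 298 without the 0 min array of the peroxide course, and 324 and 276 without that of the MMS course. They were 879 and 912 without the 30 min array and 395 and 422 without the 60 min array. Of 377 rises called in exactly 1 of these 4 fits, 332 were called without the 30 min array, as were 419 of 494 such falls.

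The plot of the 24 largest rises and 24 largest falls shows the signals behind these calls. All 24 of the rises kept their call whichever of the 4 arrays was left out, as did 6 of the 24 falls. Another 11 of these falls kept it in 1 of the 4 fits.

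**Figure D1:**
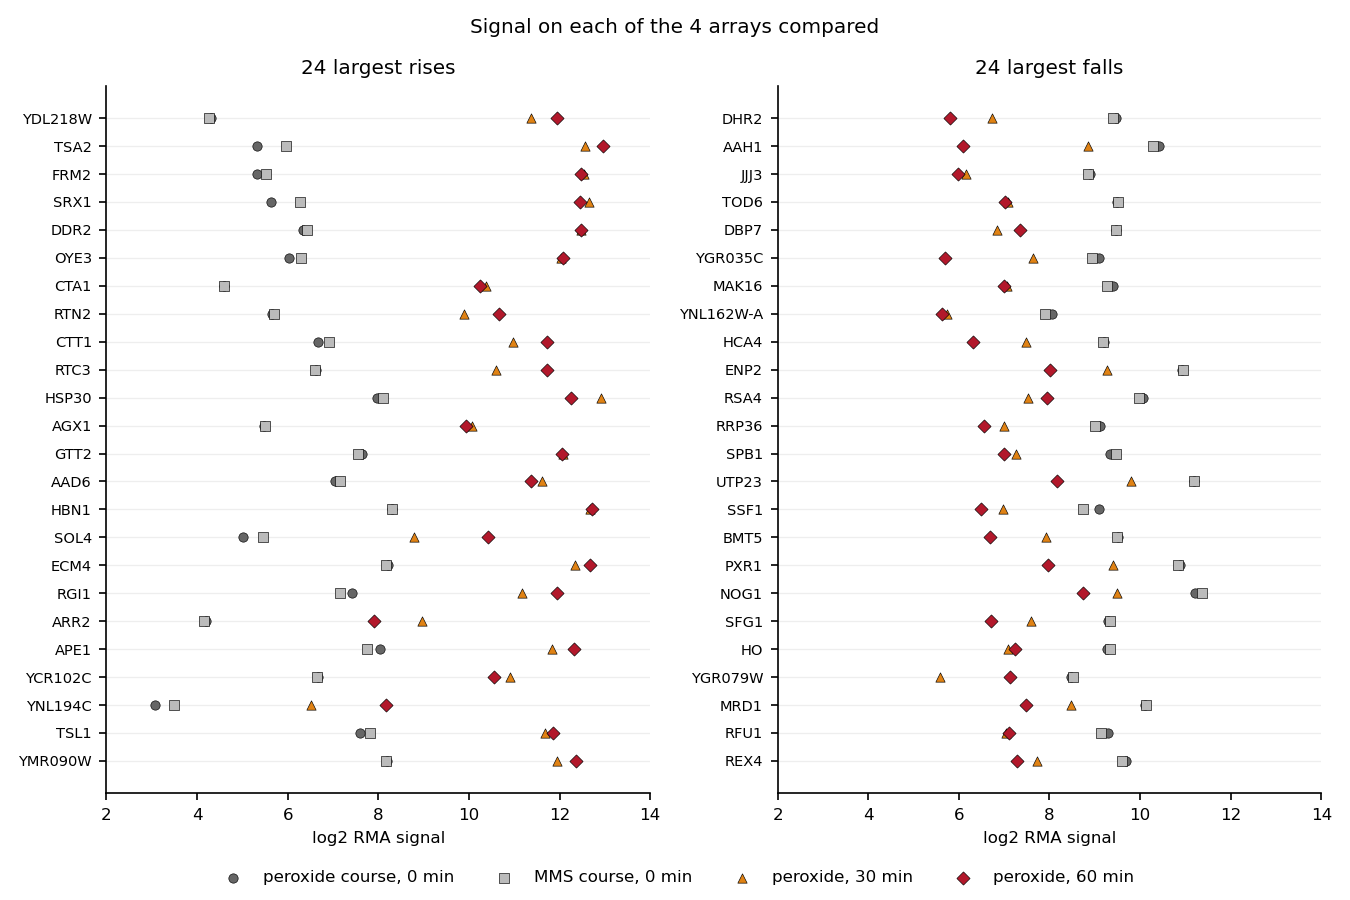
Log2 RMA signal (horizontal axis) of the 24 largest rises (left) and 24 largest falls (right) among called genes, with one point for each of the 4 arrays compared. The 48 genes were chosen with both peroxide arrays outside both 0 min arrays, so that this separation is not a finding. The rise of YDL218W is from 4.31 and 4.26 to 11.38 and 11.93. The fall of DHR2 is from 9.46 and 9.40 to 6.73 and 5.80.

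Genes for peroxide removal rose, most of all those with a low signal before stress. Of the 6 peroxiredoxin and sulfiredoxin genes 4 rose, with a median change of 1.51, and none fell. TSA2, the stress-made cytosolic peroxiredoxin, went from 5.33 and 5.96 to 12.55 and 12.97, a rise of 7.12 ± 0.57 (adjusted p = 0.000316). SRX1, sulfiredoxin, which repairs over-oxidised peroxiredoxins, went from 5.63 and 6.26 to 12.64 and 12.45. The mitochondrial peroxiredoxin gene PRX1 rose from 10.02 and 9.95 to 12.35 and 12.65 (2.51 ± 0.32, adjusted p = 0.00132). These 3 genes kept their calls with each array left out. The main cytosolic peroxiredoxin, TSA1, already stood at 12.95 and 12.93 and was at 13.23 and 13.30 (0.32 ± 0.14, adjusted p = 0.0962), close to the highest signal on any array, 13.7. AHP1, another abundant peroxiredoxin, rose by 0.50 ± 0.15 (adjusted p = 0.0291), a call that was kept in 1 of the 4 leave-out fits, as its list's count was 3, 3, 4 and 3 without the 0 min array of the peroxide course, that of the MMS course, the 30 min array and the 60 min array. DOT5, the nuclear member, was at 0.32 ± 0.17 (adjusted p = 0.168).

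Catalases, superoxide dismutases and cytochrome c peroxidase rose in 5 of 6 cases, with a median of 2.17. CTA1, the peroxisomal catalase, went from 4.59 and 4.60 to 10.38 and 10.25, and CTT1, the cytosolic one, from 6.67 and 6.90 to 10.96 and 11.73. The mitochondrial genes CCP1 for cytochrome c peroxidase (2.37 ± 0.47, adjusted p = 0.00672) and SOD2 for manganese superoxide dismutase (1.97 ± 0.30, adjusted p = 0.00259) rose in every leave-out fit. SOD1, the abundant copper-zinc enzyme, was at 12.85 and 12.84 and then at 13.14 and 13.27 (0.36 ± 0.14, adjusted p = 0.0693). Its copper chaperone gene CCS1 rose by 0.51 ± 0.13 (adjusted p = 0.0151). The count of rises in this group stayed at 4 or 5 with each array left out.

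In the glutathione system, which couples peroxide and xenobiotics to the tripeptide glutathione, 10 of 16 genes rose and 1 fell, with a median of 0.93. The transferase genes GTT2 (from 7.65 and 7.56 to 12.07 and 12.05) and ECM4 (from 8.21 and 8.16 to 12.33 and 12.67) moved most. GSH1, the rate-limiting enzyme of glutathione synthesis, rose from 9.84 and 9.89 to 11.64 and 11.18 (1.55 ± 0.21, adjusted p = 0.00169), and GSH2, the second enzyme, by 0.51 ± 0.14 (adjusted p = 0.0246). Among the peroxidases, GPX1 rose by 1.71 ± 0.25 (adjusted p = 0.00223). GPX2 stood at 10.14 and 10.15 and then at 12.64 and 12.85, so that its groups did not overlap, but its change of 2.61 ± 0.97 did not pass (adjusted p = 0.064). ECM38, which breaks glutathione down in the vacuole, rose by 1.62 ± 0.25 (adjusted p = 0.00259), whereas DUG3 of the cytosolic degradation complex fell by 0.61 ± 0.19 (adjusted p = 0.0337). The number of rises was 6, 8, 9 and 8 without the 0 min array of the peroxide course, that of the MMS course, the 30 min array and the 60 min array. The fall of DUG3 was called in 1 of these fits, the one without the 60 min array.

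Thioredoxins and glutaredoxins are carriers of electrons. Of 5 thioredoxin and thioredoxin reductase genes 3 rose, and their calls were all lost without either 0 min array or without the 60 min array, while 4 were called without the 30 min array. TRR1, the cytosolic reductase, went from 11.95 and 11.99 to 13.01 and 13.20 (1.14 ± 0.33, adjusted p = 0.0248), and TRX2 from 12.18 and 12.15 to 12.76 and 12.85 (0.64 ± 0.15, adjusted p = 0.0125). The paralog TRX1 was at 0.03 ± 0.09. Of 8 glutaredoxins 2 rose and 1 fell, beside 14.7% and 19% of all genes. GRX2 rose from 11.06 and 11.06 to 12.69 and 12.78 (1.67 ± 0.19, adjusted p = 0.000864) in every leave-out fit, and GRX5, which acts in mitochondrial iron-sulfur cluster assembly, rose by 0.73 ± 0.19 (adjusted p = 0.0161), a call kept only without the 30 min array. GRX4, a nuclear glutaredoxin of iron regulation, fell by 0.38 ± 0.10 (adjusted p = 0.0154), a call kept only without the 60 min array.

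The regulators themselves moved in both directions. Of 11 genes for AP-1-like factors, Skn7 and their partners, 5 rose and 1 fell. YAP1 rose from 9.922 and 10.003 to 11.254 and 10.999 (1.16 ± 0.22, adjusted p = 0.00548), while SKN7 fell from 9.27 and 9.27 to 8.12 and 8.30 (-1.06 ± 0.19, adjusted p = 0.00462). Both calls were kept with each array left out. CIN5, the factor also named Yap4, went from 8.05 and 8.13 to 11.54 at 30 min and had dropped to 9.44 at 60 min. YAP7 took the same course, from 7.42 and 7.64 to 9.51 and then 7.93 (1.19 ± 0.40, adjusted p = 0.0426), whereas YAP6 was higher at 60 min (7.62) than at 30 min (6.99). The number of rises in this group was 2, 2, 3 and 4 without the 0 min array of the peroxide course, that of the MMS course, the 30 min array and the 60 min array.

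Reductases that act on quinones, nitro groups and aldehydes, which form when lipids are oxidised, rose in most cases. Of 9 genes for old yellow enzymes, nitroreductases and quinone reductases, 8 rose and none fell (median 0.996). FRM2 went from 5.32 and 5.53 to 12.55 and 12.48, and its paralog HBN1 from 8.30 and 8.31 to 12.66 and 12.71. OYE3 went from 6.02 and 6.29 to 12.04 and 12.08, whereas OYE2, its relative with a high signal at rest, went from 12.09 and 12.07 to 12.83 and 12.89 (0.78 ± 0.25, adjusted p = 0.0394). ZTA1, a quinone oxidoreductase, rose by 2.40 ± 0.38 (adjusted p = 0.00291). The flavodoxin-like genes PST2, YCP4 and RFS1 rose by 0.80 to 0.996. With the 30 min array left out 7 members were called, and with any one of the other 3 arrays left out 5 were.

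Among 10 aldehyde-reducing dehydrogenases 8 rose and none fell (median 0.996). GCY1, an aldo-keto reductase, went from 7.85 and 7.95 to 10.66 and 11.77 (3.31 ± 0.62, adjusted p = 0.0054), and GRE2, methylglyoxal reductase, from 10.36 and 10.32 to 12.88 and 12.93 (2.56 ± 0.52, adjusted p = 0.00722). BDH1 and BDH2, neighbouring butanediol dehydrogenase genes, rose by 1.26 ± 0.34 and 1.21 ± 0.19, and the first of them was higher at 60 min (11.29) than at 30 min (10.31). SFA1, which handles formaldehyde bound to glutathione, rose by 0.82 ± 0.13. The count was 8 without the 30 min array and 5 without any one of the others. In the aryl-alcohol dehydrogenase family AAD6 (from 7.05 and 7.14 to 11.60 and 11.38) and AAD4 (from 8.94 and 9.02 to 12.56 and 12.41) rose, and 3 of the 5 members measured were not called. The probe set of AAD4 is of a type shared between similar genes, so its signal may hold that of a relative. AAD10, AAD14 and AAD3 were at 0.12 ± 0.15, 0.37 ± 0.16 and 0.50 ± 0.29.

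NADPH for these reactions comes largely from the pentose phosphate pathway, in which 5 of 13 genes rose and none fell (median 0.41). The entry enzyme gene ZWF1 rose from 10.42 and 10.52 to 12.31 and 12.57. SOL1 rose by 1.40, and the other 3 rises were of minor isoforms. SOL4 went from 5.02 and 5.46 to 8.80 and 10.42, NQM1, the second transaldolase, from 5.61 and 5.33 to 7.55 and 8.26, and GND2, the minor 6-phosphogluconate dehydrogenase, from 4.98 and 4.94 to 5.86 and 7.21. Their major counterparts SOL3, TAL1 and GND1 were at 0.09 ± 0.14, 0.27 ± 0.10 and 0.38 ± 0.22 and did not pass. RKI1, ribose-5-phosphate isomerase, stood at 11.22 and 11.11 and then at 10.46 and 9.23 (-1.32 ± 0.56, adjusted p = 0.0972). The call of GND2 was lost without either 0 min array or the 60 min array, and those of ZWF1, SOL4 and NQM1 were kept.

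Transcripts for stored carbohydrate rose as a group. All 7 trehalose genes rose, with a median of 1.51, and they held both directions of the pathway. TSL1, a subunit of the synthase complex, went from 7.59 and 7.82 to 11.67 and 11.85. The synthase TPS1 rose by 1.51 ± 0.29 and the phosphatase TPS2 by 1.95 ± 0.37. The trehalases NTH1, NTH2 and ATH1 rose by 1.34 ± 0.29, 1.35 ± 0.29 and 1.61 ± 0.34. Of the 7, 3 were called without the 0 min array of the peroxide course, 6 without that of the MMS course, 7 without the 30 min array and 4 without the 60 min array.

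Of 14 glycogen genes 9 rose and none fell (median 1.53), again both for synthesis and for breakdown. The synthase genes GSY1 and GSY2 rose by 2.58 ± 0.67 (adjusted p = 0.0171) and 2.27 ± 0.40 (adjusted p = 0.00456), and GLC3, the branching enzyme, by 2.45 ± 0.32 (adjusted p = 0.00138). GPH1, glycogen phosphorylase, went from 5.34 and 5.57 to 7.14 at 30 min and 9.48 at 60 min. PGM2, which links glycogen to glycolysis, went from 6.78 and 7.04 to 9.54 and 11.02, while its paralog PGM1 was at -0.41 ± 0.23 (adjusted p = 0.191). The number of rises was 3 and 4 without the 0 min arrays of the peroxide and MMS courses, 11 without the 30 min array and 4 without the 60 min array.

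Sugar phosphorylation changed and sugar uptake was not called. HXK1, the hexokinase made when glucose is short, went from 8.25 and 8.53 to 10.72 and 12.51, GLK1, glucokinase, from 9.97 and 10.04 to 11.76 and 12.52, and EMI2, a glucokinase-like protein, from 8.44 and 8.38 to 10.31 and 11.21. HXK2, the hexokinase of growth on glucose, was at 0.02 ± 0.11. Of 16 hexose transporters and glucose sensors limma called 0, although 2 had an unadjusted p under 0.05, HXT7 and HXT1, and 3 were called higher and 1 lower without the 30 min array. HXT7, a high-affinity transporter whose probe set is shared with similar genes, stood at 8.74 and 8.81 and then at 9.29 and 11.59 (1.67 ± 0.63, adjusted p = 0.0667). HXT1, a low-affinity transporter, stood at 10.29 and 10.24 and then at 8.96 and 9.53 (-1.02 ± 0.36, adjusted p = 0.0511). MIG2, a glucose repressor, stood at 7.80 and 7.92, then at 5.54 at 30 min and at 8.05 at 60 min, and was not called. In the list of hexokinases and glucose repression 5 of 14 genes rose and 1 fell, and the rises numbered 2, 3, 5 and 2 and the falls 0, 0, 0 and 3 without the 0 min array of the peroxide course, that of the MMS course, the 30 min array and the 60 min array.

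In glycerol and dihydroxyacetone metabolism 4 of 11 genes rose and 1 fell. GPD1, the stress-responsive glycerol-3-phosphate dehydrogenase, went from 8.17 and 8.35 to 11.12 and 11.60 (3.10 ± 0.41, adjusted p = 0.00154), and DAK2, a dihydroxyacetone kinase, from 5.75 and 5.57 to 8.97 and 9.28 (3.46 ± 0.33, adjusted p = 0.000504). FPS1, the glycerol channel, fell from 10.20 and 10.25 to 9.70 and 9.69 (-0.53 ± 0.10, adjusted p = 0.0047). These 3 calls were kept with each array left out, and that of GUT2 (1.23 ± 0.42) was kept only without the 30 min array. In a separate list of 13 alcohol and aldehyde dehydrogenase genes 2 rose, near the 14.7% of all genes, and 1 fell. The rises were ALD3, a stress-induced aldehyde dehydrogenase (2.44 ± 0.50, adjusted p = 0.00729), and the mitochondrial ALD4 (1.61 ± 0.20, adjusted p = 0.00132). The fermentation genes PDC1 and ADH1 were at 0.03 ± 0.08 and 0.04 ± 0.09, with signals between 12.98 and 13.16 on the 4 arrays.

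**Figure D2:**
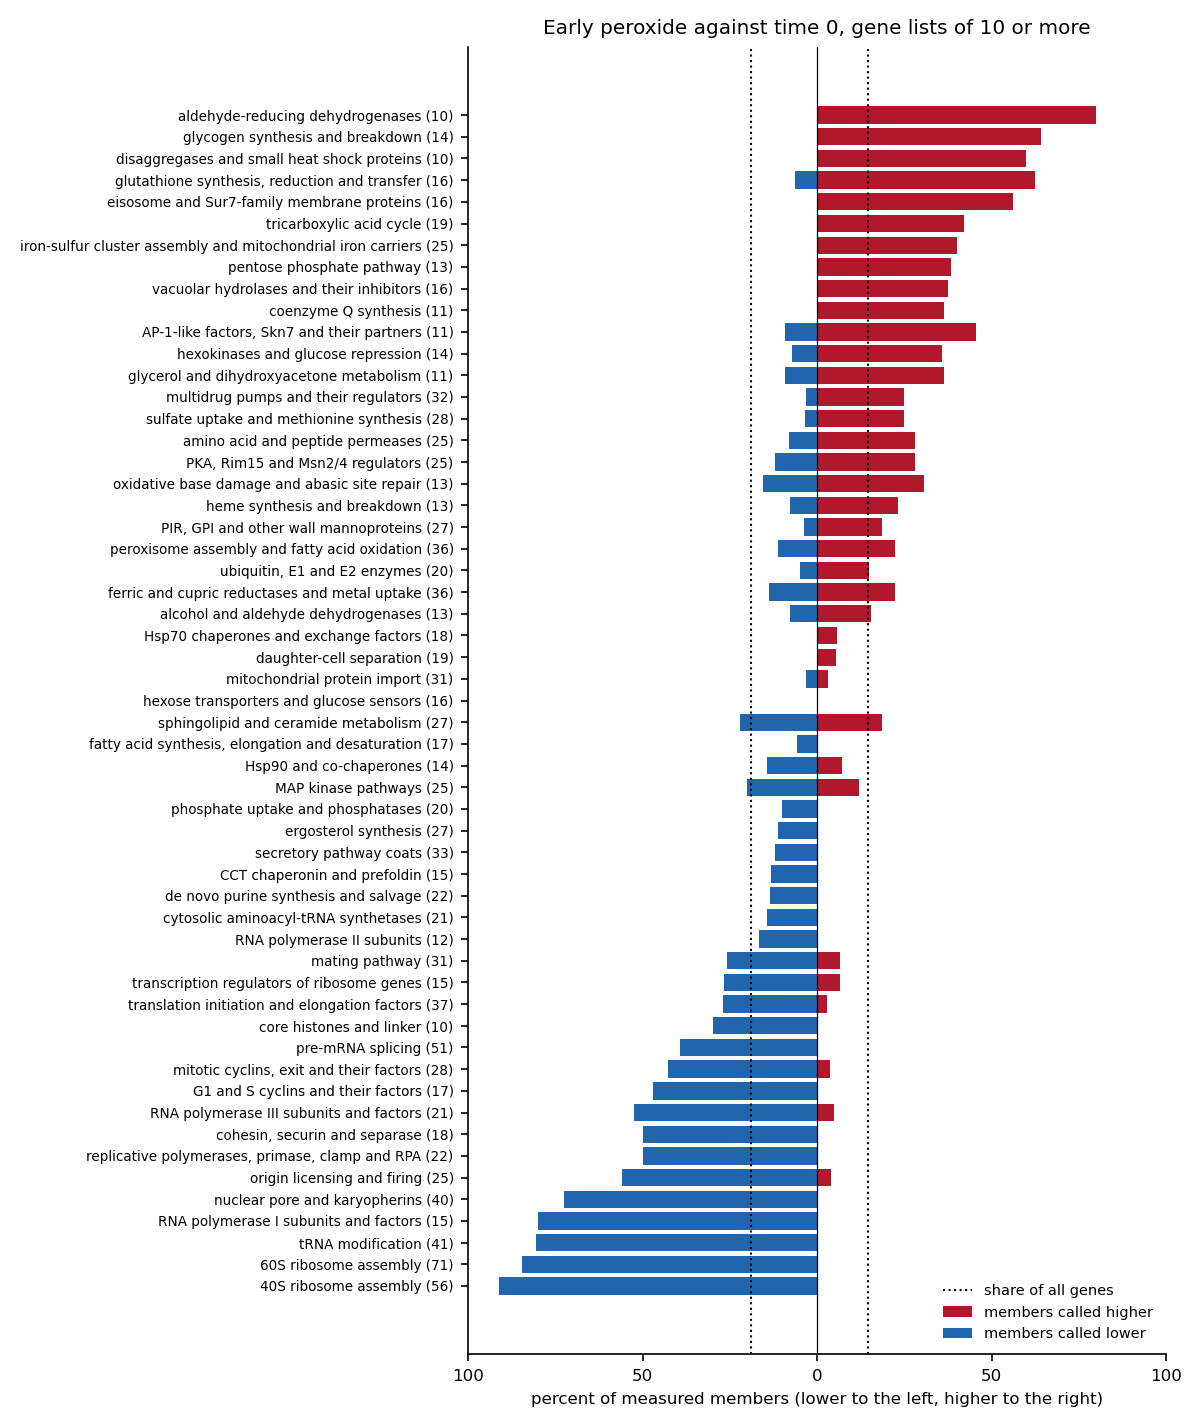
Percent of the measured members of each gene list called higher (red, to the right) or lower (blue, to the left) in early peroxide against time 0, for lists of 10 or more genes (number measured in brackets); the dotted lines mark the shares over all genes, 14.7% higher and 19% lower. Ribosome assembly, tRNA modification and nuclear transport lists lie at the lower end, and aldehyde reductases, glycogen and glutathione lists at the upper end.

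Mitochondrial and peroxisomal transcripts changed in part. Of 19 genes of the tricarboxylic acid cycle 8 rose and none fell (median 0.54). The succinate dehydrogenase genes SDH1, SDH2 and SDH4 rose by 1.07 ± 0.25, 1.01 ± 0.24 and 0.72 ± 0.21, and the citrate synthase gene CIT1 went from 10.85 and 10.95 to 11.41 and 12.17. Of 11 genes for coenzyme Q, the lipid electron carrier, 4 rose, led by COQ4 (1.14 ± 0.31, adjusted p = 0.0199). None of these 12 calls was kept without either 0 min array or without the 60 min array, and 11 and 5 genes of the 2 lists were called without the 30 min array. Mitochondrial protein import gave 1 rise, MIA40 (0.83 ± 0.27), and 1 fall, TIM12 (-0.57 ± 0.14), among 31 genes. MIA40 forms disulfide bonds in imported proteins, and its call was kept only without the 30 min array.

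Iron-sulfur cluster assembly stood out from the other mitochondrial groups in its timing. Of 25 genes for cluster assembly and mitochondrial iron carriers 10 rose and none fell, and their median was higher at 30 min (0.49) than at 60 min (0.19). ISU2, a scaffold protein, went from 10.35 and 10.15 to 12.56 and 12.06, IBA57, which acts late in assembly, from 8.55 and 8.50 to 11.03 and 10.29, and MRS4, an iron carrier of the inner membrane, from 8.58 and 8.62 to 10.65 and 10.03. The cytosolic assembly factors DRE2 (9.57 and 9.62, then 11.48 and 10.23) and NBP35 (9.38 and 9.31, then 10.82 and 10.23) rose as well. In all 5 the 30 min array was the highest. The number of rises in the list was 5, 7, 9 and 10 without the 0 min array of the peroxide course, that of the MMS course, the 30 min array and the 60 min array. In heme metabolism, HMX1, the heme oxygenase, rose by 1.49 ± 0.31 (adjusted p = 0.00768) and CYT2, which attaches heme to cytochrome c1, by 1.17 ± 0.11 (adjusted p = 0.000504), while HEM1, the first enzyme of synthesis, fell by 0.85 ± 0.19 (adjusted p = 0.00934). HEM3 went from 7.15 and 7.48 to 8.39 at 30 min and 7.10 at 60 min, and was not called.

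Among 36 genes of peroxisome assembly and fatty acid oxidation 8 rose and 4 fell, beside 14.7% and 19% of all genes. SPS19, a dienoyl-CoA reductase, rose from 7.996 and 7.995 to 8.97 and 9.84 (1.41 ± 0.28, adjusted p = 0.00672). POT1, the thiolase, stood at 3.67 and 3.82 and then at 4.18 and 6.08 (1.39 ± 0.49, adjusted p = 0.0548). Without the 0 min array of the peroxide course 2 members were called higher and 1 lower, and without that of the MMS course 3 and 1. Without the 30 min array the counts were 9 and 3, and without the 60 min array 3 and 3.

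Chaperones did not move as one class, and their counts stand beside 14.7% of all genes higher and 19% lower. Of 10 disaggregases, small heat shock proteins and related genes 6 rose and none fell (median 1.30), of 18 Hsp70 chaperones and exchange factors 1 rose, and of 14 Hsp90 genes and co-chaperones 1 rose and 2 fell. HSP30, a plasma membrane protein that restrains the proton pump, went from 7.97 and 8.11 to 12.91 and 12.25. The small heat shock protein HSP42 went from 9.75 and 9.92 to 12.14 and 12.37, and HSP31, a glyoxalase-type chaperone, from 9.45 and 9.43 to 11.53 and 12.03. The disaggregases HSP104 of the cytosol and HSP78 of mitochondria rose by 1.27 ± 0.20 and 1.33 ± 0.24. HSP12 and HSP26, often used as stress markers, were at 9.61 and 11.89 and at 8.39 and 9.37 after 30 and 60 min, and neither passed (adjusted p = 0.104 and 0.547). Both estimates were upward, since the smallest change in the list of disaggregases and small heat shock proteins was 0.40.

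The Hsp110 gene SSE2 went from 8.61 and 8.76 to 10.32 and 10.82 (1.88 ± 0.34, adjusted p = 0.00485), and HSP82, the inducible Hsp90, from 9.28 and 9.62 to 10.86 and 11.42 (1.69 ± 0.32, adjusted p = 0.00539). HSC82, the constitutive Hsp90, was at 0.01 ± 0.10. The co-chaperones CNS1 and CPR7 fell by 1.14 ± 0.28 and 0.53 ± 0.15. The chaperonin that folds actin and tubulin, with its partner prefoldin, gave no rise and 2 falls of 15 genes. The falls, below the 19% of all genes, were in the prefoldin subunits PAC10 and GIM3. Those 2 calls and the ones of CNS1 and CPR7 were kept only without the 30 min array, whereas those of SSE2 and HSP82 were kept in every leave-out fit. The calls of the first list were 5, 5, 6 and 6 without the 0 min array of the peroxide course, that of the MMS course, the 30 min array and the 60 min array.

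Of 16 genes listed as vacuolar hydrolases and inhibitors 6 rose and none fell (median 0.46). Among the 6 were the trehalases ATH1 and NTH1, both also in the trehalose list, and NTH1 is a cytosolic enzyme. APE1, an aminopeptidase delivered by autophagy, went from 8.04 and 7.74 to 11.84 and 12.31. TFS1, an inhibitor of carboxypeptidase Y, went from 7.80 and 7.72 to 9.92 and 11.75, and PRB1, proteinase B, from 8.54 and 8.58 to 9.70 and 10.62. In the list of ubiquitin and its E1 and E2 enzymes 3 of 20 genes rose and 1 fell, near the share of rises over all genes (14.7%), and the rises numbered 2, 1, 3 and 2 without the 0 min array of the peroxide course, that of the MMS course, the 30 min array and the 60 min array. The polyubiquitin gene UBI4 rose by 1.06 ± 0.27, and the conjugating enzymes UBC8 and UBC5 by 1.28 ± 0.26 and 1.34 ± 0.28. The vacuolar count was 1, 3, 11 and 1 without the 0 min array of the peroxide course, that of the MMS course, the 30 min array and the 60 min array, with APE1 called each time.

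Of 25 genes of the protein kinase A and Rim15 pathways and their targets 7 rose and 3 fell. The shares over all genes were 14.7% and 19%. TPK2, a catalytic subunit of protein kinase A, went from 8.94 and 9.08 to 10.90 and 10.44 (1.66 ± 0.18, adjusted p = 0.000739). The growth-restraining kinase YAK1 and the factor GIS1 rose by 1.37 ± 0.23 and 1.19 ± 0.19, and RAS1 fell from 10.34 and 10.20 to 8.97 and 9.11 (-1.23 ± 0.30, adjusted p = 0.0137). MSN4 was at 0.96 ± 0.44 (adjusted p = 0.119). Among 25 genes of MAP kinase pathways 3 rose and 5 fell, near the shares over all genes (14.7% and 19%). SDP1, a phosphatase of the cell integrity kinase Slt2, went from 6.35 and 6.60 to 9.47 and 9.35 (2.93 ± 0.35, adjusted p = 0.00103). The osmosensor gene SHO1 and the kinase SSK22 of the osmotic pathway fell by 0.85 ± 0.16 and 0.79 ± 0.11, while SSK1 of that pathway rose by 0.91 ± 0.22. The first list gave 3 rises and 1 fall without the 0 min array of the peroxide course, 5 and 2 without that of the MMS course, 8 and 3 without the 30 min array and 5 and 2 without the 60 min array. The second gave 2 rises in each of these fits but the one without the 30 min array, where it gave 3, and between 2 and 3 falls.

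Ribosome assembly lists held 105 of the 337 called falls of 2-fold or more. Of 56 genes for the small subunit 51 fell and none rose, with a median of -1.70, and of 71 for the large subunit 60 fell and none rose, with a median of -1.60. The medians were lower at 60 min (-2.03 and -2.07) than at 30 min (-1.36 and -1.14). DHR2, a helicase of the small subunit pathway, fell by 3.17 ± 0.54 (adjusted p = 0.00402). ENP2 went from 10.92 and 10.96 to 9.28 and 8.003, HCA4 from 9.20 and 9.19 to 7.49 and 6.31, and UTP23 from 11.19 and 11.18 to 9.80 and 8.17.

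On the large subunit side the order of the time points varied. DBP7, a helicase, went from 9.47 and 9.47 to 6.83 and 7.34 and RSA4, a late assembly factor, from 10.06 and 9.98 to 7.52 and 7.94, both lowest at 30 min. NOG1, a GTPase, went from 11.22 and 11.38 to 9.49 and 8.75 and SSF1 from 9.10 and 8.75 to 6.97 and 6.49, both lowest at 60 min. The ribosome assembly genes RRP36, SPB1, BMT5, PXR1, MRD1, MAK16 and REX4 fell by between 2.13 and 2.31. The small subunit count was 13, 17, 53 and 16, and the large subunit count 10, 13, 67 and 11, without the 0 min array of the peroxide course, that of the MMS course, the 30 min array and the 60 min array, and the falls of DHR2, ENP2 and DBP7 were called each time.

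The polymerases that transcribe ribosomal and transfer RNA fell too. Of 15 genes for RNA polymerase I and its factors 12 fell, and of 21 for RNA polymerase III 11 fell and 1 rose. RRN11, of the core factor, went from 8.65 and 8.55 to 6.22 and 7.17 (-1.90 ± 0.35, adjusted p = 0.00517), and RPC82 from 9.50 and 9.62 to 7.88 and 7.56. The large polymerase I subunits RPA190 and RPA135 fell by 1.46 ± 0.44 and 1.67 ± 0.48. Of 12 RNA polymerase II subunits 2 fell, near the 19% of all genes. They were RPB8, which all 3 polymerases share, and RPB9. The largest subunit, RPO21, was at -0.02 ± 0.21. The polymerase I count was 5, 4, 13 and 5, and that of polymerase III 3, 4, 12 and 3, without the 0 min array of the peroxide course, that of the MMS course, the 30 min array and the 60 min array. The falls of RRN11 and RPC82 were called each time.

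Among regulators of ribosome genes, the repressor TOD6 fell from 9.48 and 9.50 to 7.08 and 7.03 (-2.44 ± 0.45, adjusted p = 0.00496). Its paralog DOT6 was at 0.27 ± 0.12 (adjusted p = 0.116), and STB3, a further repressor, rose by 0.45 ± 0.12 (adjusted p = 0.019), a call lost without either 0 min array or the 30 min array. The activators IFH1 and FHL1 fell by 1.27 ± 0.26 and 0.99 ± 0.20. SFP1, another activator, was at -0.18 ± 0.13. The kinase genes TOR1 and TOR2 were at 0.03 ± 0.24 and -0.20 ± 0.11.

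Of 41 tRNA modification genes 33 fell and none rose, with a median of -1.04. TRM11, a tRNA methyltransferase subunit, went from 9.98 and 9.69 to 8.05 and 7.45, and DUS1, a dihydrouridine synthase, from 9.19 and 9.04 to 7.27 and 7.12. The count was 12, 14, 36 and 12 without the 0 min array of the peroxide course, that of the MMS course, the 30 min array and the 60 min array. Aminoacyl-tRNA synthetases fell in 3 of 21 cases, below the 19% of all genes, and none of the 3 was called without either 0 min array or the 60 min array. Among 37 translation factors 10 fell and 1 rose. The initiation factor subunits RPG1 and GCD2 fell by 0.97 ± 0.18 and 0.89 ± 0.12, and DBP1, a helicase related to the initiation factor Ded1, rose from 6.81 and 6.99 to 8.10 and 8.68 (1.49 ± 0.28, adjusted p = 0.00537). These factors' falls numbered 3 and 2 without the 0 min arrays of the peroxide and MMS courses, 13 without the 30 min array and 2 without the 60 min array.

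Purine genes gave 3 falls of 22, below the 19% of all genes. AAH1, adenine deaminase of the salvage route, went from 10.42 and 10.30 to 8.86 at 30 min and 6.09 at 60 min (-2.89 ± 0.95, adjusted p = 0.0409), and that call was kept only without the 30 min array. BAS1, an activator of purine and histidine synthesis, fell from 8.83 and 8.75 to 7.30 and 7.29 (-1.49 ± 0.18, adjusted p = 0.001) in every leave-out fit. HPT1, of the salvage route, fell by 1.49 ± 0.51 (adjusted p = 0.0475), in none of them. JJJ3, which takes part in diphthamide modification of an elongation factor, went from 8.90 and 8.84 to 6.16 and 5.99.

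Cell cycle and replication transcripts were lower. Of 17 genes for G1 and S cyclins and their factors 8 fell and none rose. PCL1 went from 8.74 and 8.59 to 6.35 and 7.35, CLB6 from 8.67 and 8.51 to 6.73 and 7.43, CLN2 from 9.32 and 9.32 to 7.76 and 8.43 and CLN1 from 8.57 and 8.52 to 7.15 and 7.94. All 4 were lowest at 30 min. The list's median was -0.72 at 30 min and -0.35 at 60 min. The count was 0, 1, 2 and 7 without the 0 min array of the peroxide course, that of the MMS course, the 30 min array and the 60 min array.

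Of 28 genes for mitotic cyclins, exit and their factors 12 fell and 1 rose, among them the forkhead factor gene FKH1, which went from 9.03 and 9.03 to 7.84 and 7.32 (-1.45 ± 0.24, adjusted p = 0.00361). CLB1 and CLB2 were lowest at 30 min, at 6.97 and 7.42, and stood at 7.95 and 7.91 at 60 min. Of 18 cohesin, securin and separase genes 9 fell. The cohesin subunit SMC3 went from 8.98 and 9.19 to 8.04 and 8.04, and the checkpoint kinase BUB1 from 6.36 and 6.37 to 5.02 and 5.58. The falls of the mitotic list numbered 5, 2, 4 and 8, and those of the cohesin list 5, 3, 6 and 6, without the 0 min array of the peroxide course, that of the MMS course, the 30 min array and the 60 min array. In the daughter-cell separation list 1 of 19 genes was called, higher, although the median was -0.48, and SUN4, at 11.50 and 11.51 and then 10.38 and 10.39, did not pass (-1.12 ± 0.52, adjusted p = 0.122).

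Replication genes fell in part. Of 25 genes for origin licensing and firing 14 fell and 1 rose, and of 22 for the replicative polymerases, primase, clamp and RPA 11 fell. SLD3, an origin firing factor, fell from 7.48 and 7.40 to 6.43 and 6.59, ORC1 from 8.72 and 8.85 to 8.06 and 7.87, and POL12, of the primase complex, from 8.83 and 8.90 to 7.66 and 7.89. MCM7 fell by 1.06 ± 0.32 (adjusted p = 0.0289). The falls numbered 3, 3, 6 and 9 in the origin list and 3, 4, 8 and 5 in the polymerase list without the 0 min array of the peroxide course, that of the MMS course, the 30 min array and the 60 min array. Of 10 histone genes 3 fell, HTA1 (-0.90 ± 0.24), HHT1 (-0.43 ± 0.10) and the centromeric CSE4 (-0.54 ± 0.16), and each of these calls was kept only without the 30 min array.

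Base repair went both ways, with 4 rises and 2 falls of 13 genes, beside 14.7% and 19% of all genes. NTG1, a glycosylase for oxidised pyrimidines, rose from 7.95 and 7.87 to 9.42 and 9.05 (1.32 ± 0.22, adjusted p = 0.00359). PCD1, which cleaves oxidised nucleotides, rose by 1.03 ± 0.29 (adjusted p = 0.0221). OGG1, the glycosylase for oxidised guanine, fell from 9.11 and 9.12 to 8.04 and 7.43 (-1.38 ± 0.25, adjusted p = 0.00507). MAG1, a glycosylase for alkylated bases, rose from 8.20 and 8.19 to 10.06 and 10.59, and PHR1, the photolyase, from 6.35 and 6.62 to 8.03 and 8.39. The calls of NTG1, OGG1, MAG1 and PHR1 were kept in every leave-out fit and that of PCD1 only without the 30 min array.

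Nutrient uptake genes were mixed, and their counts stand beside 14.7% of all genes higher and 19% lower. Of 25 amino acid and peptide permeases 7 rose and 2 fell. PUT4, the proline permease, went from 5.22 and 5.10 to 6.34 at 30 min and 9.79 at 60 min. MUP3, a low-affinity methionine permease, took the other order, from 6.64 and 6.87 to 9.61 and 8.64, and AGP2, a carnitine and polyamine permease, went from 7.73 and 7.67 to 8.95 and 9.81. Of 28 genes of sulfate uptake and methionine synthesis 7 rose and 1 fell. The sulfur regulator MET28 went from 5.21 and 5.48 to 8.52 and 8.42, STR3, cystathionine beta-lyase, from 6.47 and 6.60 to 8.70 and 9.40, and MET16, PAPS reductase, from 7.88 and 7.87 to 9.83 and 9.81. The rises of the permeases numbered 3, 3, 8 and 3, and those of the sulfur list 3, 3, 11 and 4, without the 0 min array of the peroxide course, that of the MMS course, the 30 min array and the 60 min array.

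Of 36 metal uptake genes 8 rose and 5 fell, beside 14.7% and 19% of all genes. AFT2, a regulator of iron genes, went from 7.14 and 7.22 to 9.63 and 8.36 (1.82 ± 0.35, adjusted p = 0.00591), and FRE1, a surface ferric and cupric reductase, from 11.22 and 11.05 to 12.52 and 12.19 (1.22 ± 0.14, adjusted p = 0.000864). FRE4, another ferric reductase, fell from 7.56 and 7.57 to 6.02 and 5.05, and FET4, a low-affinity iron transporter, from 8.79 and 8.74 to 7.95 and 6.90. The rises numbered 4, 5, 10 and 5 and the falls 0, 0, 3 and 2 without the 0 min array of the peroxide course, that of the MMS course, the 30 min array and the 60 min array. Phosphate uptake gave 2 falls of 20, below the 19% of all genes. These were PHO90, a low-affinity transporter (-1.30 ± 0.32), and PHO4, the pathway's activator (-0.63 ± 0.19). PHO90 kept its call only without the 30 min array and PHO4 only without the 0 min array of the peroxide course.

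Drug and metalloid transporters rose in part. Of 32 multidrug pumps and regulators 8 rose and 1 fell, beside 14.7% and 19% of all genes. FLR1, a drug antiporter and known Yap1 target, went from 9.72 and 9.68 to 12.27 and 12.09 (2.48 ± 0.56, adjusted p = 0.0103), ATR1 from 8.86 and 8.80 to 11.40 and 10.75 (2.25 ± 0.22, adjusted p = 0.000504), and the polyamine pump TPO4 from 8.08 and 8.20 to 10.64 and 9.93. The regulator YRR1 rose by 1.69 ± 0.25 (adjusted p = 0.00214). The arsenate reductase ARR2 went from 4.20 and 4.16 to 8.98 and 7.90 and the arsenite exporter ARR3 from 3.65 and 4.51 to 8.15 and 6.35, so that both were highest at 30 min. The pump list's rises numbered 4, 6, 9 and 8 without the 0 min array of the peroxide course, that of the MMS course, the 30 min array and the 60 min array.

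Lipid lists differed in how many members were called. Of 27 ergosterol genes 3 fell, below the 19% of all genes. Among them were both sterol regulators, UPC2 (from 6.40 and 6.46 to 4.93 and 5.55, -1.19 ± 0.22, adjusted p = 0.00498) and ECM22 (from 8.53 and 8.71 to 7.91 and 7.69, -0.82 ± 0.15, adjusted p = 0.0049). Both calls were kept with each array left out. In sphingolipid and ceramide metabolism 5 of 27 genes rose and 6 fell, near the shares over all genes (14.7% and 19%). The rises numbered 1, 1, 4 and 1 and the falls 1, 1, 7 and 2 without the 0 min array of the peroxide course, that of the MMS course, the 30 min array and the 60 min array. The ceramidase genes YPC1 (2.01 ± 0.29) and YDC1 (1.17 ± 0.29) rose while LAC1, a ceramide synthase, fell by 0.93 ± 0.22 (adjusted p = 0.0125). Of 17 fatty acid synthesis genes 1 fell, again below the 19% of all genes. It was FAA3 (-0.84 ± 0.19, adjusted p = 0.00987), and OLE1, the desaturase, was at -0.56 ± 0.39. FAA3 was called in 2 of the 4 leave-out fits.

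Eisosomes are furrows of the plasma membrane. Of 16 eisosome and Sur7-family genes 9 rose and none fell (median 0.53). The core component LSP1 went from 10.71 and 10.59 to 11.56 and 12.11 (1.18 ± 0.24, adjusted p = 0.00741), whereas its partner PIL1 was at 0.35 ± 0.16 (adjusted p = 0.111). YNL194C, a Sur7-family protein, went from 3.07 and 3.50 to 6.52 and 8.18, its relative FMP45 from 5.01 and 4.96 to 5.71 and 6.98, and SUR7 itself was at -0.29 ± 0.24. The eisosome count was 4, 2, 11 and 3 without the 0 min array of the peroxide course, that of the MMS course, the 30 min array and the 60 min array. At the wall, SPI1 went from 7.31 and 7.29 to 9.46 and 9.71 and YGP1 from 11.03 and 11.24 to 12.60 and 12.90, and these were 2 of the 5 rises among 27 wall mannoproteins, where UTR2, a chitin transglycosylase, fell by 1.26 ± 0.42 (adjusted p = 0.0411). That share of rises is near the 14.7% of all genes. The wall list's rises numbered 2, 3, 4 and 3 without the 0 min array of the peroxide course, that of the MMS course, the 30 min array and the 60 min array, and the fall of UTR2 was called in none of these fits.

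Nuclear transport and splicing transcripts were lower. Of 40 nuclear pore and karyopherin genes 29 fell and none rose, with a median of -0.45. The importins NMD5 (9.80 and 9.84, then 8.85 and 8.29) and KAP122 (9.45 and 9.56, then 8.80 and 8.56) were called in every leave-out fit, and SXM1 and PSE1 fell by 1.02 ± 0.22 and 0.86 ± 0.18. Of 51 splicing genes 20 fell and none rose (median -0.30). PRP43, a helicase of splicing and of ribosome assembly, fell by 1.36 ± 0.36, HSH155 by 0.89 ± 0.17 and SNU66 by 0.77 ± 0.14. The falls numbered 11, 6, 26 and 9 in the transport list and 6, 8, 14 and 8 in the splicing list without the 0 min array of the peroxide course, that of the MMS course, the 30 min array and the 60 min array. Secretory coat genes fell in 4 of 33 cases, below the share of all genes.

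Genes known by a systematic name alone numbered 499, of which 87 rose and 66 fell, beside 14.7% and 19% of all genes. YDL218W went from 4.31 and 4.26 to 11.38 and 11.93, YCR102C from 6.66 and 6.64 to 10.91 and 10.55, YMR090W from 8.20 and 8.17 to 11.95 and 12.36 and YLR460C from 8.34 and 8.16 to 11.74 and 11.57. YLR297W (3.29 ± 0.42), YLL056C (3.26 ± 0.59) and YKL070W (2.92 ± 0.59) followed. Among the falls, YNL162W-A went from 8.06 and 7.90 to 5.73 and 5.63, YPL068C from 8.19 and 8.02 to 6.25 and 6.63 and YBR238C from 8.64 and 8.70 to 6.90 and 6.60. YGR079W was lower at 30 min (5.58) than at 60 min (7.13), and YGR035C, YBL028C and YLL053C were lower at 60 min. The falls of YBR238C, YGR079W, YGR035C, YBL028C and YLL053C were each called in 1 of the 4 leave-out fits, and those of YNL162W-A and YPL068C in all. YEL076C-A, whose 0 min arrays read 6.71 and 8.19, fell by 1.90 ± 0.48, and its probe set is shared between similar genes.

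Named genes outside the lists were also among the largest changes. DDR2, a multi-stress gene, went from 6.33 and 6.43 to 12.48 and 12.48. RTN2, a reticulon-like protein of the endoplasmic reticulum, went from 5.66 and 5.70 to 9.88 and 10.66, AGX1, alanine:glyoxylate aminotransferase, from 5.47 and 5.51 to 10.07 and 9.94, RTC3 from 6.62 and 6.61 to 10.60 and 11.72, and RGI1, known from respiratory growth, from 7.41 and 7.15 to 11.18 and 11.94. Of the falls, SFG1, a transcription factor gene, went from 9.30 and 9.34 to 7.58 and 6.72, HO, the mating-type endonuclease, from 9.28 and 9.34 to 7.08 and 7.24, and RFU1, which regulates free ubiquitin, from 9.30 and 9.13 to 7.04 and 7.11. The rises and RFU1 were called with each array left out, HO in 1 and SFG1 in 2 of the 4 fits.

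The arrays at 30 and 60 min were also set side by side, with 1 array each and no test. Genes 2-fold or more above the time 0 mean numbered 336 at 30 min (6.17%) and 500 at 60 min (9.18%). Those 2-fold or more below it numbered 298 (5.47%) and 453 (8.31%). Of the higher ones 277 were so at both times, 59 at 30 min alone and 223 at 60 min alone. Of the lower ones 236 were so at both, 62 at 30 min alone and 217 at 60 min alone. The gene SKS1, a kinase of low-glucose growth, was 2-fold away in opposite directions, at 7.53 and 7.48, then 6.18 at 30 min and 9.01 at 60 min, and it was named after its values were seen. Among the called genes, 579 of the 799 rises were larger at 60 min and 677 of the 1035 falls were deeper at 60 min.

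**Figure D3:**
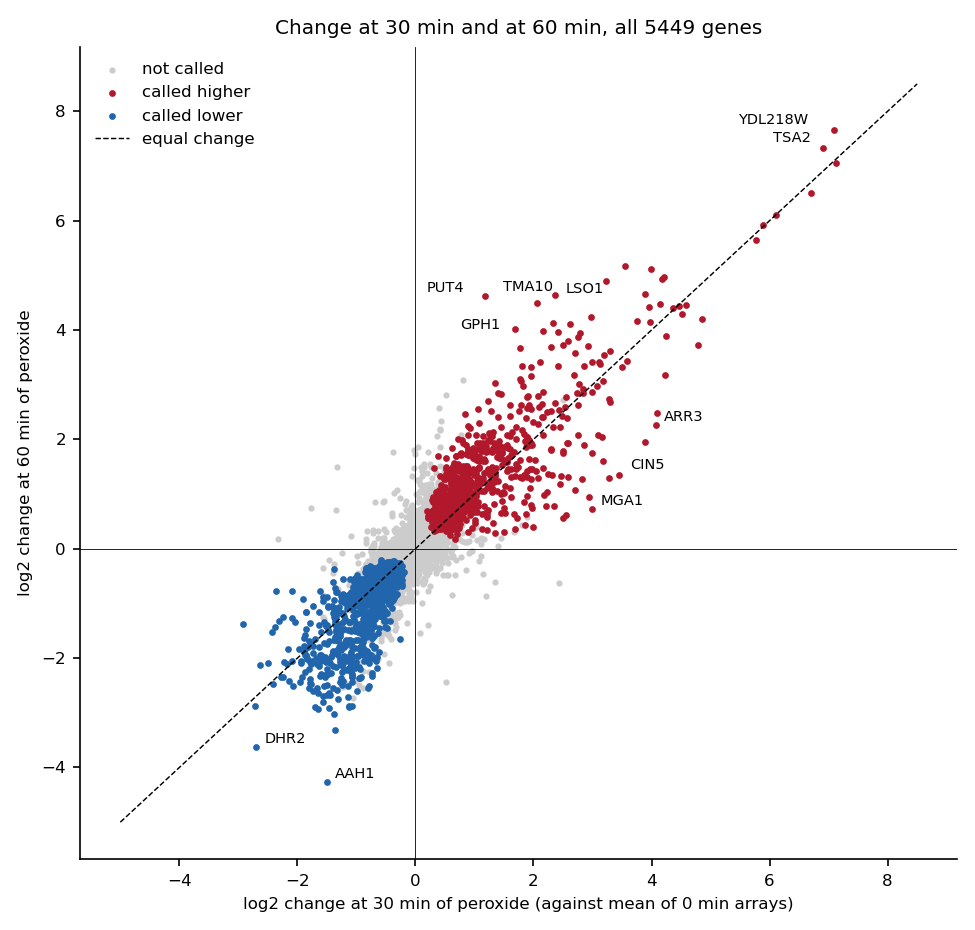
Log2 change at 60 min (vertical axis) against that at 30 min (horizontal axis), both from the mean of the 0 min arrays, for all 5449 genes; red and blue points are genes called higher (799) and lower (1035) over both times, and the dashed line marks equal change. PUT4, TMA10, GPH1 and LSO1 lie above the line, and CIN5, MGA1 and ARR3 below it.

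The called genes with the largest drop from 30 to 60 min included transient rises. Beside CIN5 and ARR3, YHK8, a drug antiporter-like gene, went from 7.91 and 7.96 to 11.21 and 9.22, MGA1, a heat shock factor-like gene, from 3.98 and 4.35 to 7.16 and 4.88, FMP48 from 4.21 and 4.63 to 7.36 and 5.36, and AIM33 from 5.77 and 5.89 to 8.38 and 6.45. YKL070W reached 8.33 and then 6.38, and YMR084W 7.37 and then 5.43. Thus 8 of these 10 genes were above time 0 and lower at 60 min than at 30 min, and AAH1 and YGR035C were falls that deepened.

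The called genes with the largest gain from 30 to 60 min were all rises. PUT4 gained 3.44, TMA10, a ribosome-associated protein, 2.43 (from 6.02 and 5.87 to 7.997 and 10.43), GPH1 2.34 and LSO1 2.28 (from 3.18 and 3.49 to 5.70 and 7.98). HXK1, TFS1, YNL194C, the meiotic regulator RIM4 (4.67 and 5.08, then 6.65 and 8.54), the methionine synthesis gene MET2 (5.25 and 5.54, then 6.74 and 8.43) and GPG1 (6.15 and 5.94, then 6.88 and 8.51) gained 1.62 to 1.89. In the plot of the full peroxide course, LSO1 was back at 5.27 by 100 min, whereas HXK1 and GPH1 were then at 12.75 and 9.72, above their values at 60 min.

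**Figure D4:**
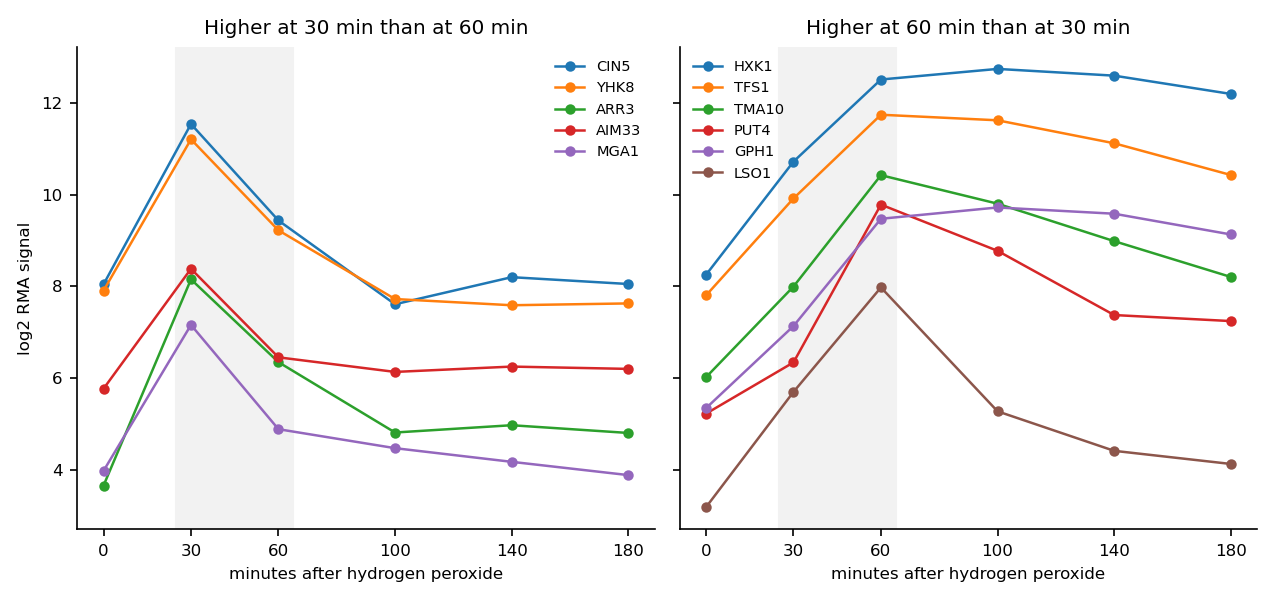
Log2 RMA signal (vertical axis) over 180 min of the peroxide course, 1 array per time point, for called genes that were higher at 30 min than at 60 min (left) and higher at 60 min than at 30 min (right); the grey band marks the 30 and 60 min arrays. Every gene on the left is lower at 60 min than at 30 min, with CIN5 at 7.61 by 100 min, and HXK1 on the right stays above 12 from 60 min on.

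The peroxide arrays at 30 and 60 min were then tested directly against the MMS arrays of the same times (n = 2 arrays each), which asks where the early response differed between an oxidant and an alkylating agent. Of the 5449 genes 130 were higher (2.39%) and 313 lower (5.74%) with peroxide. With every array centred on its median these counts were 195 and 167, so that the excess of lower genes depends on the scaling. They also depend on the error term. With the time point as a block, so that arrays of the same time are compared and the change from 30 to 60 min leaves the error, 346 genes were higher and 654 lower, among them 439 of the 443 called without the block. With only the 4 arrays compared in the fit, and no block, 0 were called, while 201 higher and 385 lower genes had an unadjusted p under 0.05. Leaving out the 30 min peroxide array gave 147 and 205, the 60 min peroxide array 64 and 84, the 30 min MMS array 279 and 611, and the 60 min MMS array 76 and 108. Without either 0 min array there were 73 and 171. Of the 799 genes that rose with peroxide, 51 stood above early MMS and 10 below it, and of the 1035 that fell, 144 stood below early MMS and 1 above it. For 78 of the higher and 159 of the lower genes peroxide itself gave no call against time 0.

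The genes with the largest excess over MMS included both catalases. CTA1 stood at 10.38 and 10.25 with peroxide and at 6.52 and 8.24 with MMS (2.93 ± 0.54, adjusted p = 0.0148), and CTT1 at 10.96 and 11.73 against 8.05 and 9.46 (2.59 ± 0.64, adjusted p = 0.0409). YDL218W stood at 5.48 and 7.65 with MMS, a difference of 5.09 ± 1.01 (adjusted p = 0.0196). DAK2 stood at 5.61 and 5.57 with MMS, within 0.2 of its 0 min values, and PUT4 at 4.65 and 4.46, under its 0 min values. AGX1, NCA3, ARR2, the fatty acid uptake gene FAT3 and DDR2 stood 2.58, 2.54, 2.19, 2.17 and 2.10 above early MMS. SRX1, in contrast, stood at 12.27 and 12.86 with MMS, a difference of -0.02 ± 0.73, and AAD6 and GTT2 differed by 0.06 ± 0.45 and 0.34 ± 0.53, none of which passed.

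The 10 genes furthest below early MMS differed in what they did with peroxide itself. DDI3, a cyanamide hydratase gene whose probe set is shared with similar genes, stood at 5.87 and 6.60 with peroxide and at 11.43 and 12.70 with MMS (-5.83 ± 0.35, adjusted p = 4.59e-05). The epoxide hydrolase gene YNR064C stood at 3.63 and 4.01 against 7.04 and 9.22, the sulfite pump gene SSU1 at 9.54 and 9.54 against 12.54 and 12.64, and YSW1 at 4.90 and 4.70 against 7.38 and 8.12. None of these 4 was called for peroxide against time 0. STB6, FRE4 and UGA3, a regulator of GABA use, fell with peroxide, and STB6 stood at 5.30 and 5.32 against 7.11 and 6.89 with MMS. YNR068C and BSC5 rose with peroxide (1.14 ± 0.30 and 0.90 ± 0.31) and stood higher still with MMS, by 1.65 ± 0.30 and 1.57 ± 0.31, and YOL024W was 1.47 ± 0.21 higher with MMS.

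**Figure D5:**
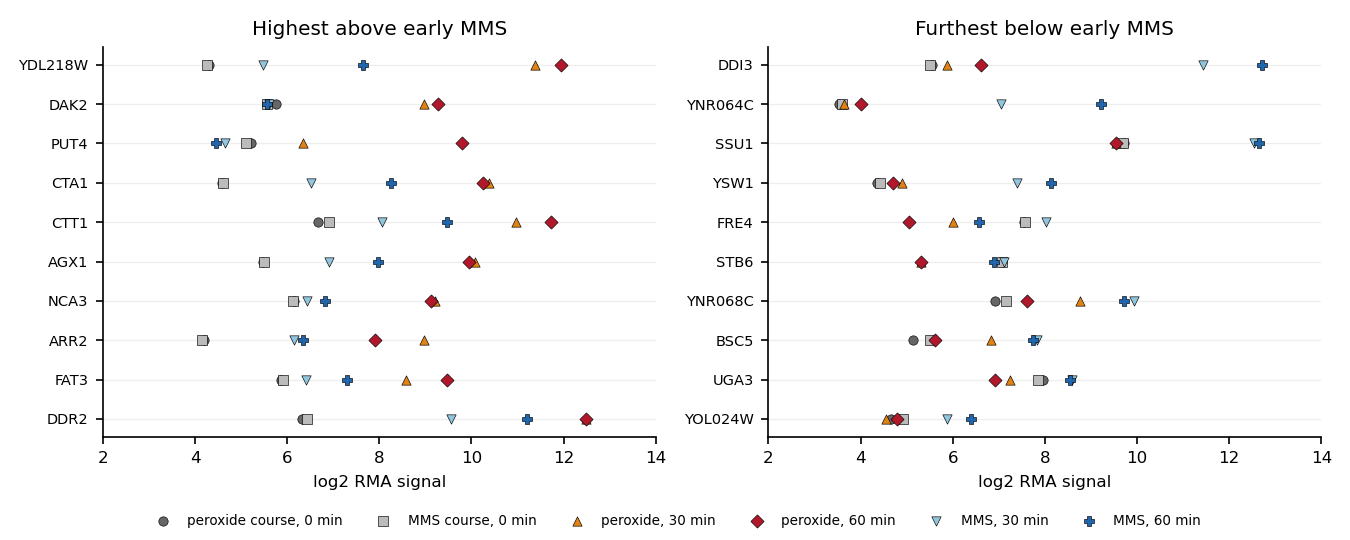
Log2 RMA signal (horizontal axis) on the 0 min arrays and on the 30 and 60 min arrays of both courses, for the 10 genes furthest above (left) and the 10 furthest below (right) early MMS among genes called in the direct test. DAK2 and PUT4 stay near or under their 0 min values with MMS, and DDI3, YNR064C, SSU1 and YSW1 stay within 1.2 of theirs with peroxide.

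By list, and with the same limits, 2 of 6 genes of the catalase list were higher with peroxide in the direct test, both of them catalases. Of 16 glutathione genes 1 was, GTO1. Over all genes 2.39% were called higher and 5.74% lower. With the time point as a block 346 of the 5449 genes were higher and 654 lower, so counts rose in general. No peroxiredoxin, thioredoxin or old yellow enzyme gene was called. With the time point as a block 1 gene of each of these last 3 lists was higher. Splicing genes were lower with peroxide in 12 of 51 cases, nuclear transport genes in 9 of 40, replicative polymerases in 8 of 22 and origin factors in 7 of 25. With the block these counts were 22, 17, 11 and 9. In the small and large subunit assembly lists together 1 gene was called, lower with peroxide, but with the block 26 of 56 and 19 of 71 genes were lower. HMX1 and HEM3 were higher with peroxide, by 2.03 and 1.61, and HEM13 by 0.82. The mean of HEM3 was 7.32 at time 0, 7.75 with early peroxide and 6.14 with early MMS. Most of its difference thus lay in a lower signal with MMS. For HEM13 these means were 9.29, 9.06 and 8.24, so that it was not raised by peroxide. OLE1 stood 1.61 above early MMS although it was not called against time 0. Its estimate against time 0 was downward, so its mean with MMS lay further below time 0.

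Marker lists of cell state were read as well. The 5 alpha-specific genes measured, which include the pheromone genes MF(ALPHA)1 and MF(ALPHA)2 and the receptor gene STE3, read between 11.33 and 12.92 on the 4 arrays, and 0 of the 5 was called (0 had an unadjusted p under 0.05). The 7 a-specific genes read between 4.05 and 7.04, with 1 rise and 2 falls of at most 0.61. Signals of different probe sets are not on one scale, so these values do not rank the genes. Of 7 haploid-specific genes 4 fell and 1 rose. STE4 and GPA1, subunits of the pheromone G protein, fell by 0.57 ± 0.18 and 0.58 ± 0.15, the kinase gene FUS3 by 0.44 ± 0.12 and HO by 2.15 ± 0.51, and STE18, the third G protein subunit, rose by 0.51 ± 0.13. The falls numbered 0, 0, 1 and 2 and the rises 1, 0, 0 and 1 without the 0 min array of the peroxide course, that of the MMS course, the 30 min array and the 60 min array. Of 15 meiosis and sporulation genes 5 rose and none fell. The rises included SMK1 (from 4.49 and 4.40 to 6.89 and 6.67) and the spore wall genes DIT1 and DIT2. Of the meiotic regulators, IME2 rose by 0.41 ± 0.12 (adjusted p = 0.0254), while IME1 and NDT80 were at -0.07 ± 0.17 and 0.08 ± 0.25. The rises of this list numbered 2, 2, 5 and 2 in the same 4 fits, and DIT1 kept its call in 1 of them. Array medians lay between 9.06 and 9.20, and ACT1, actin, which was named after its values were seen, read 13.08 and 13.06 and then 13.08 and 13.10.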

How the data were processed

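Total RNA from 12 samples of 2 budding yeast time courses was measured on 1-colour Affymetrix arrays, 1 per time point. The deposited values are log2 signals that the authors made with RMA, per the submitters' processing notes, which give no version. Of 5900 probe sets, 184 controls and 218 without a gene were left out. The other 5498 gave 5449 genes, by the brightest probe set where a gene had several (47 genes), and symbols came from the platform annotation updated through RefSeq (12 changed). limma 3.58.1 in R 4.3.3 fitted 5 groups over all 12 arrays (7 residual degrees of freedom) with two-sided tests. The number of arrays limits precision. A simulation drew independent noise with the same SD of a gene in every group and changed 200 genes. It recovered 29.9%, 77.6% and 95.5% of changes of 0.5, 1 and 2 on the log2 scale, with 8 false among 143 calls. In the data 1834 genes were called and the spread differed between groups, so these rates may not carry over. Named genes were the 24 largest rises and falls with both early arrays outside both 0 min arrays, up to 5 per list and all of lists of 16 or fewer genes, the 10 largest 60 min against 30 min differences and MMS differences each way, and the 8 largest each way among systematic names. Members and lists were chosen with earlier results of these data known. Alternatives changed the arrays, window, scaling, filter, moderation and probe set rule, and set the time point as a block against MMS.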

Additional observations from a re-analysis of the deposited data

Results flagged for a closer look

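The signal of 443 genes differed between peroxide and MMS at 30 and 60 min in the direct limma test, 130 higher and 313 lower with peroxide. They are listed here because 2 treatments differed by a test of the difference itself. With only the 4 arrays compared in the fit, 0 genes were called, the lowest adjusted p was 0.0528, and 201 higher and 385 lower genes had an unadjusted p under 0.05. With the time point as a block 346 were higher and 654 lower.

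For 7 genes named in this text, and 515 of all genes, the 30 min array lay on one side of both 0 min arrays and the 60 min array on the other. None of these genes was called against time 0, each time point had 1 array, and the difference was not tested. From 30 to 60 min the log2 signal differed by 2.83 in SKS1, by 2.51 in MIG2, by 0.48 in NDT80 and by 0.37 in STE3. It differed by -1.29 in HEM3, by -0.24 in IME1 and by -0.06 in HXK2.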

How the results depend on the processing

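With each array of the groups compared left out in turn, the genes higher with peroxide than at time 0 numbered 287 to 879 and those lower 276 to 912, list members 93 to 220 higher and 96 to 334 lower, and genes against early MMS 64 to 279 higher and 84 to 611 lower. Without either early MMS array, 983 were higher and 1252 lower than at time 0. With 100 min added to the early windows there were 467 higher and 655 lower against time 0, 292 and 729 against MMS, and 123 and 198 list members. Against MMS, limma called 0 higher and 0 lower from only the 4 arrays compared, and 195 and 167 with arrays centred on their medians. The other alternatives kept these counts within 1.5 times, including the 2-fold counts at 30 and 60 min. The cause was not tested. The share of promoters with a motif was not run. Against MMS, the time point as a replicate block, chosen after seeing the data, gave 346 higher and 654 lower (4 residual degrees of freedom). For the comparison with time 0, no paired analysis was possible because its groups share no time point.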

Other observations

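Called genes had a neighbour called the same way more often than other genes did, though most had none. Neighbours were taken among the measured genes, in the gene order of the R64 assembly. Of the 799 genes that rose, 280 (35.0%) had a neighbour that rose, against 1180 of 4650 other genes (25.4%). Of the 1035 that fell, 434 (41.9%) had a neighbour that fell, against 1437 of 4414 (32.6%). These are descriptions with no test. On chromosome VI the 5 neighbours SNZ3, AAD6, AGP3, DAK2 and ZNF1 all rose, by 1.09 to 4.40 on the log2 scale, and were named after their values were seen. On chromosome XV there were 2 runs of 6 genes that fell, RRG7 to DGK1 and UBC11 to REV1.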
